A study of Homo sapiens with 6 samples.

Results

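The genes of the cytosolic ribosomal proteins and of 4 elongation factors were examined for RNA contacts of tagged HSP70 proteins. Members were taken from the RefSeq gene table for GRCh38.p14 by symbol: protein-coding genes named RPL or RPS plus a number, RPLP0, RPLP1, RPLP2 and RPSA, together with EEF1A1, EEF1B2, EEF1G and EEF2. Read-through genes, RPS6K kinases and RPS19BP1 were left out. The rule gave 91 genes of 20050 protein-coding genes on the chromosomes: 53 of the large subunit series, 34 of the small subunit series and 4 elongation factors. They include 8 paralogues whose symbol carries a suffix L, such as RPL22L1.

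FLASH-seq reads the RNA that ultraviolet light crosslinks to a purified protein. The baits were GFP, HSPA1A, the stress-inducible HSP70, and HSPA8, its constitutive relative, in the HEK293 Flp-In T-Rex line, derived from human embryonic kidney. Every bait carried a 3xFLAG-HBH tag and was switched on with 1 µg/ml tetracycline, so all groups share the induction, and bound RNA comes from cells that make the bait from a transgene. Each bait had 2 biological replicates, and peak lists of the HSPA1A and HSPA8 replicates were analysed. No GFP list was used, so no count below has a control bait beside it.

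The lists held 2744 and 2059 peaks for HSPA1A replicates 1 and 2, and 3131 and 2040 for HSPA8 replicates 1 and 2. Read depth is unknown. The only size attached to a peak is the authors' whole-number score, whose meaning is not stated and which ranks peaks within a list here. For HSPA1A its median was 10 in replicate 1 and 13 in replicate 2, and for HSPA8 it was 10 and 22. In the HSPA8 lists 2778 and 1423 peaks lay on the 25 assembled chromosomes, while every HSPA1A peak did.

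Ribosomal protein mRNAs are among the most abundant and most translated messages of a growing cell. Many of them, and those of the elongation factors, begin with a pyrimidine-rich tract, the 5′ terminal oligopyrimidine or TOP motif, through which mTOR signalling adjusts their translation. Their introns commonly carry small nucleolar RNAs (snoRNAs), which are released from the spliced intron: box C/D snoRNAs guide ribose methylation of ribosomal RNA, and box H/ACA snoRNAs guide pseudouridylation. A peak inside such a gene can therefore lie on the message precursor or on a separate stable RNA, and both were counted apart.

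Peaks on members were few and fell into distinct kinds. The 4 lists together held 95 peaks on 35 of the 91 genes. Of these, 54 overlapped a snoRNA gene, 6 lay on the 7SL RNA gene RN7SL1 within the annotated span of RPS29, and 35 lay outside both. The snoRNA peaks came from every list: 20 and 9 with HSPA1A, 5 and 20 with HSPA8, replicate 1 first. The 35 remaining peaks came from replicate 1 of either bait alone, with 8 for HSPA1A and 27 for HSPA8, and the lists numbered 2 held 0.

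**Figure D1:**
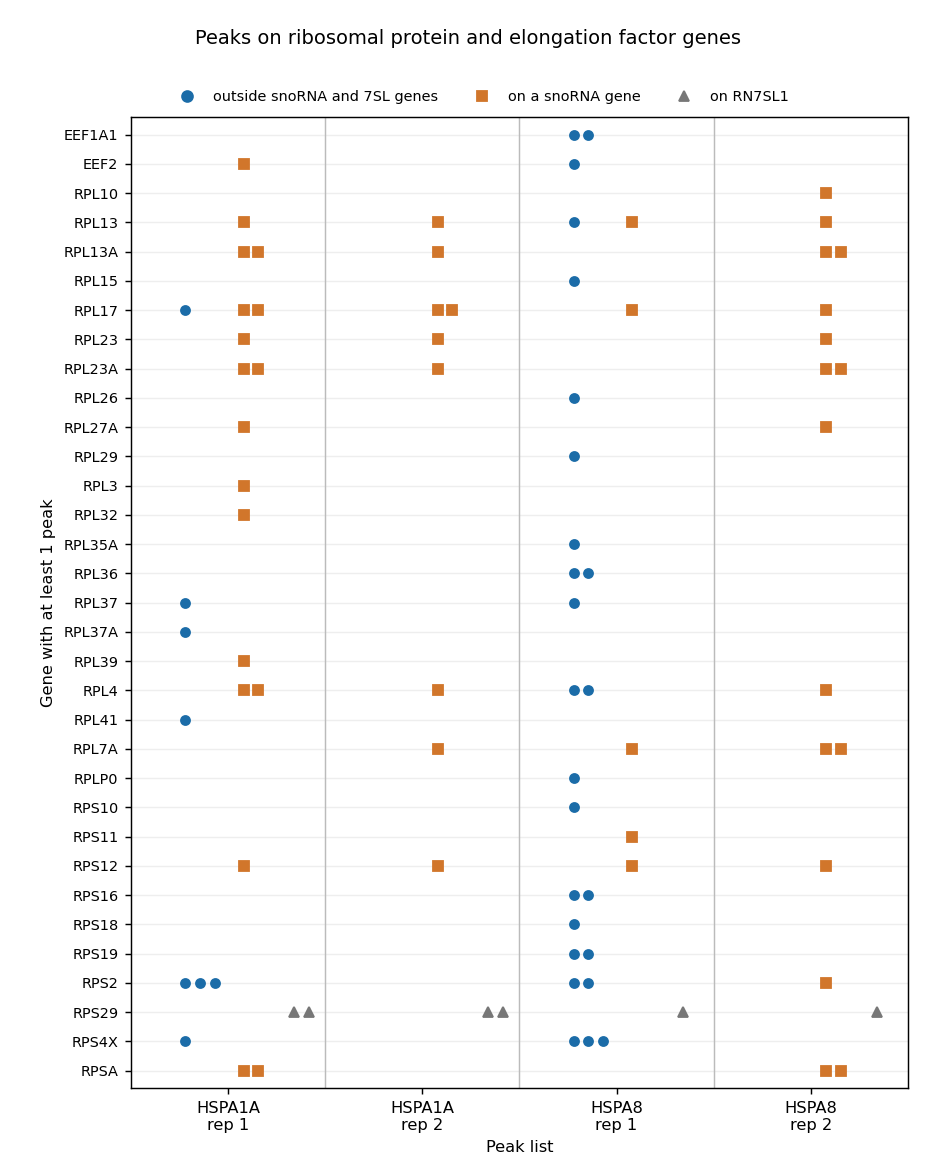
Peaks on 33 of the 35 genes with at least 1 peak (rows) in the 4 lists (columns). Each mark is 1 peak: circles lie outside snoRNA and 7SL genes, squares on a snoRNA gene and triangles on RN7SL1 within RPS29. The circles drawn stand only under the lists numbered 1 (8 and 25), while squares stand under all 4 lists (18, 9, 5 and 16).

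Strand separated the RPS29 peaks from the rest. The table of promoter windows gives a strand for 74 members. All 26 peaks outside snoRNA and 7SL genes on such members, and all 38 snoRNA peaks on them, lay on the strand of the member. The 6 peaks in RPS29 lay on the opposite strand. A strand was not tabulated for the hosts of the other 9 and 16 peaks.

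One snoRNA lies whole within a tabulated window, and its sequence shows where the peaks of both lists numbered 2 fell. SNORD58B is a box C/D snoRNA in RPL17 at chr18:49491664-49491729 on the minus strand of GRCh38.p14, and the sequence is RefSeq's. Capitals mark TGATG, from the C box, and CTGA, the D box, the motifs that name this class.

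SNORD58B: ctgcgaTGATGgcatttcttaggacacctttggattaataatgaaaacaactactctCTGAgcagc

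TGATG occupies bases 7 to 11 and CTGA bases 58 to 61, counted from the 5′ end of the 66 bases. The HSPA1A replicate 2 peak covered bases 15 to 66 with a score of 12, and the HSPA8 replicate 2 peak bases 27 to 66 with a score of 10. Both peaks held the D box and ended with the last base of the snoRNA, and neither reached the C box. Of the 35116 promoter windows in the table, 8.71% held TGATG on either strand in their first 66 bases, 44.7% held CTGA, and 0.638% held TGATG followed by CTGA on the given strand.

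The second sequence set is the gene start of the elongation factors and of 2 ribosomal protein genes that the naming rule picked, shown for the TOP motif. Members were chosen by symbol, but their families are known for this motif. A high share of it among members was therefore known beforehand and is no independent result. Each line gives 15 bases before and 15 bases from a tabulated start, from the RefSeq windows of GRCh38.p14. EEF1A1 (chr6:73521018-73521047), EEF1G (chr11:62573877-62573906), EEF2 (chr19:3985449-3985478) and RPS4X (chrX:72277234-72277263) are on the minus strand. EEF1B2 (chr2:206159880-206159909) and RPL13 (chr16:89560667-89560696) are on the plus strand. Capitals mark a run of at least 5 C or T that opens with C within 5 bases of the start.

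EEF1A1: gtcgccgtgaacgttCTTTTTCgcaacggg

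EEF1B2: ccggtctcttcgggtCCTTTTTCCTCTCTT

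EEF1G: tctcccgggcggcttactttgcggcagcgc

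EEF2: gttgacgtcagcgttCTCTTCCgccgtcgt

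RPL13: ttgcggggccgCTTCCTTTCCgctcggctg

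RPS4X: gcagtctccagccccaatttctacgcgcac

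EEF1A1 and EEF2 each carried a run of 7 bases from the first base, and EEF1B2 a run of 16 that goes on past the bases shown. EEF1B2 and RPL13 have more than 1 tabulated start, and one with a run is shown for each, downstream of the first base of the annotated gene. The 10 bases of RPL13 open 4 bases upstream of the start shown. EEF1G and RPS4X had no such run at the tabulated start. Of the 74 members with a window, 59 (79.7%) had the run at 1 or more of their starts, against 28.0% of 15843 protein-coding genes with a window. Members with a peak outside snoRNA and 7SL genes had it in 15 of 18 cases (83.3%), and the other members in 44 of 56 (78.6%). Of the 26 peaks on genes with a window, 0 overlapped the stretch from 250 bases before to 50 bases after a tabulated start of their own gene. For the other 9 the gene end that is 5′ on the strand of the peak was taken in its place, and 2 lay within 50 bp of it. The nearer was a peak in RPS2 in HSPA1A replicate 1, 4 bp from that end, with a score of 5. A counted peak must overlap the annotated gene, which often leaves only part of the stretch around a start in reach. The number of overlaps to expect was not computed.

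The first comparison asked whether the messages of the translation machinery carried peaks with one HSP70 more than with the other. By the rule as set, RPS29 included, 7 members had a peak outside snoRNA genes in HSPA1A replicate 1, which is 7.69% of the 91. Over all protein-coding genes the percentage was 3.84. HSPA1A replicate 2 had 1 member (1.10%), against 2.27% of protein-coding genes. HSPA8 replicate 1 had 20 members (22%), against 4.58%. HSPA8 replicate 2 had 1 member (1.10%), against 1.14%. Without RPS29 the counts were 6, 0, 19 and 0.

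The mean number of members was 4 ± 4.24 for HSPA1A and 10.5 ± 13.4 for HSPA8 (SD, n = 2 each). The difference of -6.5 genes lay within the SD of HSPA8 (two-sided exact permutation over 6 orders, p = 1; this design allows no p below 0.33). As a share of all peaks in a list, peaks on members outside snoRNA genes made up 0.364% (95% Wilson interval 0.198 to 0.670) and 0.0971% (0.0266 to 0.353) with HSPA1A. They made up 0.894% (0.619 to 1.29) and 0.0490% (0.00865 to 0.277) with HSPA8. The means were 0.231% ± 0.189 and 0.472% ± 0.598 (SD, n = 2 each; exact permutation test, two-sided, p = 1). The intervals cover counting error over peaks alone, and peaks of a gene are not independent. The sign of both differences rests on HSPA8 replicate 1: without it they were 3 genes and 0.182 percentage points, both toward HSPA1A.

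In neither bait was a member reproduced outside snoRNA and 7SL genes. RPS29 alone was found in both lists of each bait, 1 of 91 genes (1.10%) with its peaks on the opposite strand. For comparison, 1.42% of protein-coding genes had a peak outside snoRNA genes in both HSPA1A lists, and 0.848% in both HSPA8 lists. Across baits, the lists numbered 1 shared 4 members (4.40%) against 1.65% of protein-coding genes. Without RPS29 the shared genes were RPL37, RPS2 and RPS4X, which are 3 of the 6 genes of HSPA1A replicate 1 (50%) and 3 of the 19 of HSPA8 replicate 1 (15.8%). The labels give no day or batch common to libraries of one number. Whether library size or call threshold plays a part in the difference between numbers was not tested.

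**Figure D2:**
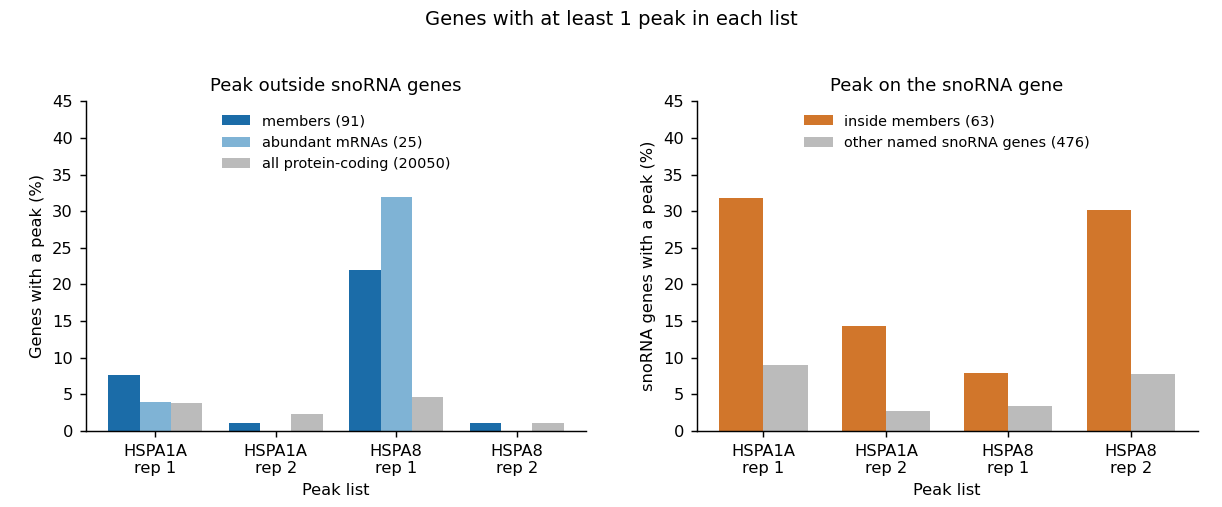
Left, the percentage of genes with at least 1 peak outside snoRNA genes in each list, for the 91 members, 25 abundant mRNAs outside translation and 20050 protein-coding genes. Right, the percentage of snoRNA genes with a peak, for the 63 inside members and the 476 other genes named SNORD or SNORA. On the left the bar of the members is tallest in HSPA8 replicate 1 (22%), below that of the abundant mRNAs (32%). It stands at 1.10% in both lists numbered 2, which is RPS29 alone, through RN7SL1. RPS29 is counted in the same way in the lists numbered 1. On the right the snoRNA genes inside members stand above the others in all 4 lists.

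Genes of these messages are short. The median annotated length was 5127 bp for members and 24093 bp for protein-coding genes, so peaks were also counted per length. HSPA1A replicate 1 had 12.4 peaks outside snoRNA and 7SL genes per Mb of member genes. Over protein-coding genes it had 0.808 peaks outside snoRNA genes per Mb, a ratio of 15.4. HSPA8 replicate 1 had 42.0 against 1.0, a ratio of 42.0. In the lists numbered 2 members had 0 per Mb against 0.441 and 0.224.

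Other abundant messages were set beside the members, from lists written with earlier results of these data known. Of 25 abundant mRNAs outside translation, with a median gene length of 5071 bp, 1, 0, 8 and 0 had a peak outside snoRNA genes in the lists HSPA1A replicates 1 and 2 and HSPA8 replicates 1 and 2. The 8 of HSPA8 replicate 1 (32%) were ACTB and ACTG1, which encode cytoplasmic actins, GAPDH, ALDOA and PKM of glycolysis, TUBB, PTMA and HSP90AA1. The share of members in that list, 22%, was below this, and the difference was not tested. GAPDH had 3 peaks, each with a score of 5. Of 19 other translation genes and TOP messages, TPT1 and NAP1L1 had a peak, both in HSPA8 replicate 1. Of 52 initiation factor genes, 1, 0, 4 and 0 had a peak, the 4 being EIF1, EIF2S1, EIF3A and EIF5A. Ribosome assembly factors had 0, 0, 1 and 0 of 16. Mitochondrial ribosomal protein genes, whose products build the other ribosome of the cell, had 2, 1, 2 and 0 of 77. MRPL48 was the one gene of these 5 lists with a peak in HSPA1A replicate 2, with a score of 7.

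Among the elongation factors, EEF1A1 and EEF2 had a peak outside snoRNA genes, in HSPA8 replicate 1 alone. EEF1A1 delivers aminoacyl-tRNA to the ribosome and lies at chr6:73515750-73521032 on the minus strand. Its peaks lay at 73517675 to 73517805, with a score of 10, and at 73517846 to 73517921, with a score of 7. They sat 62.3% and 59.6% of the way from the 5′ end of the gene, and the score of 10 was the highest of the 27 peaks outside snoRNA and 7SL genes in that list. EEF2, which drives translocation, had a peak at 3979954 to 3980028 on chromosome 19 with a score of 5, at 58.2% of its length. EEF1B2 and EEF1G, subunits of the factor that recharges EEF1A1 with GTP, had 0 peaks in the 4 lists. Processed copies of EEF1A1 and of ribosomal protein genes are common in the genome, and how reads with several matches were placed is not given in the sources used here, so these positions are uncertain between near-identical copies.

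RPS2 carried the most peaks outside snoRNA genes. It encodes a small subunit protein near the mRNA entry and lies at chr16:1962058-1964826. HSPA1A replicate 1 had 3 peaks with scores of 6, 8 and 5, HSPA8 replicate 1 had 2 with scores of 7 and 6, and the lists numbered 2 had 0. The peak of HSPA1A replicate 1 at 1962199 to 1962270 and that of HSPA8 replicate 1 at 1962197 to 1962249 shared 51 bases. The replicates numbered 1 of the different baits thus touched the same stretch of RPS2.

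RPS4X was the other gene with a shared stretch. This X-linked small subunit gene lies at chrX:72272042-72277248 on the minus strand. HSPA1A replicate 1 had a peak at 72275544 to 72275613 with a score of 5, HSPA8 replicate 1 one at 72275560 to 72275664 with a score of 7, and 54 bases were common to both. HSPA8 replicate 1 had 2 further peaks there, side by side at 72272631 to 72272733 and 72272734 to 72272772, with scores of 8 and 5. These lay at 87.7% and 86.3% of the gene, near its 3′ end.

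The other small subunit genes had their peaks in HSPA8 replicate 1 alone. RPS16 had peaks at 90.4% and 85.4% of its length with scores of 5 and 6, and RPS19, a gene mutated in Diamond-Blackfan anaemia, had peaks at 36.1% and 70.0% with scores of 5 and 7. RPS18 (score 6) and RPS10 (score 7) had 1 peak each. In all, 7 small subunit genes carried such a peak in HSPA8 replicate 1 and 2 in HSPA1A replicate 1. The naming rule gave RPS29, RPL13, the elongation factors and the members tied at the most peaks in any list, 3 (RPS2, RPS4X and RPL17 among them); the other members named were chosen after their values were seen.

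Of the large subunit genes, 10 had a peak outside snoRNA genes in HSPA8 replicate 1 and 4 in HSPA1A replicate 1. RPL37 was in both lists, but its peaks, each with a score of 6, lay apart, at 40832516 to 40832573 and at 40834471 to 40834570 on chromosome 5. RPL36 and RPL4 had 2 peaks each in HSPA8 replicate 1, with scores of 5 and 6 in both genes. RPL29 had the highest score of this subunit in HSPA8 replicate 1, 8, at 90.02% of its length. RPL13, RPL15, RPL26, RPL35A and RPLP0, the base of the ribosomal stalk, had 1 peak each with a score of 5 or 6. In HSPA1A replicate 1, RPL17 and RPL41 had 1 peak with a score of 5 and RPL37A 1 with a score of 4. The peaks in RPL15 and RPL35A also overlapped the annotated genes NKIRAS1 and DRC9, and those in RPL17 and RPS10 the read-through genes RPL17-C18orf32 and RPS10-NUDT3.

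Most genes rested on a lone peak. Of 22 genes with a peak outside snoRNA and 7SL genes, 14 had 1 peak over all lists and 8 had 2 or more. In 16 genes the peaks came from HSPA8 replicate 1 alone, in 3 from HSPA1A replicate 1 alone and in 3 from both. Over all protein-coding genes, 918 had a peak outside snoRNA genes in HSPA8 replicate 1 and 770 in HSPA1A replicate 1, with 331 in both. Peaks per gene were not counted over all protein-coding genes, so neither count is read as particular to the members.

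Along the gene, these peaks were spread. Position was measured for the 26 peaks of 18 genes with a tabulated strand, from the 5′ end of the annotated gene with introns included, since exon positions were not used here. The midpoints ran from 4.97% (RPL13) to 90.4% (RPS16) of gene length, with a median of 59.4%. That median rests on HSPA8 replicate 1: its 22 peaks had a median of 61.1%, and the 4 of HSPA1A replicate 1 had one of 29.1%, between 21.4% and 42.5%. The fifth of the gene next to the 5′ end held 3 peaks, the fifth next to the 3′ end held 5, and the stretch between held 18. The nearest midpoint to a gene start was 306.5 bp away, in RPL13.

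**Figure D3:**
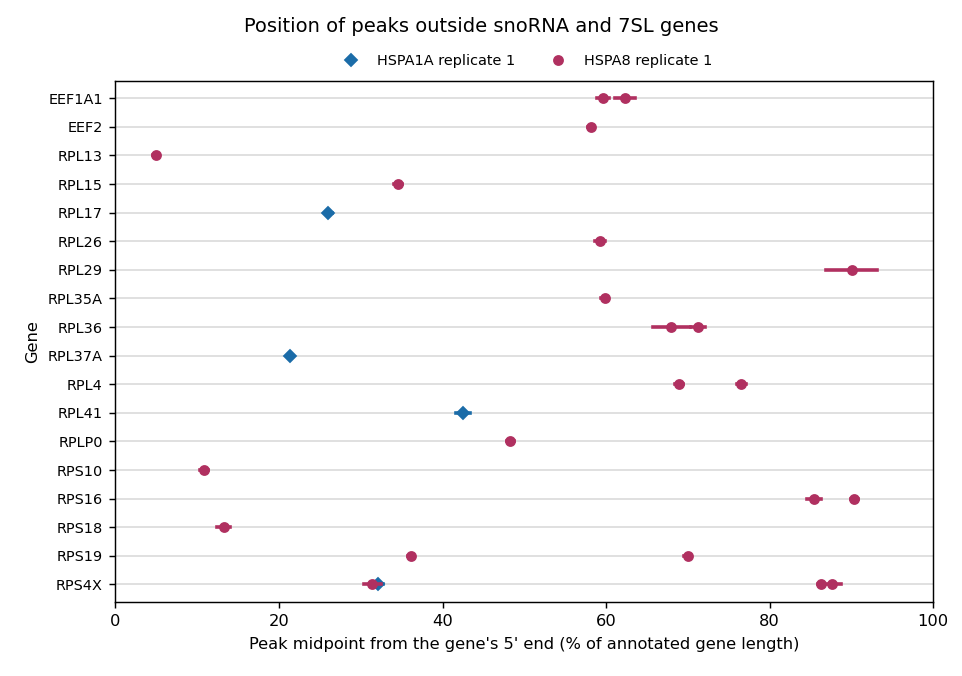
Midpoints of the 26 peaks outside snoRNA and 7SL genes on 18 genes with a tabulated strand, as a percentage of annotated gene length from the 5′ end. Diamonds are HSPA1A replicate 1, circles HSPA8 replicate 1, and horizontal bars span the peak. Points spread from 4.97% to 90.4%, and those of RPS4X at 32.1% and 31.4% overlap between the lists.

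The scores of these peaks were at the low end of their lists. Outside snoRNA and 7SL genes they ran from 4 to 8 in HSPA1A replicate 1, with a median percentile of 12.8 within the list. In HSPA8 replicate 1 they ran from 5 to 10, with a median percentile of 29.8. No such peak passed the midpoint of its list, and the highest, in EEF1A1, stood at percentile 49.5. The snoRNA peaks on members also had medians below the midpoint. Replicate 1 first, these were percentiles 38.0 and 26.5 with HSPA1A, and 29.8 and 13.9 with HSPA8.

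**Figure D4:**
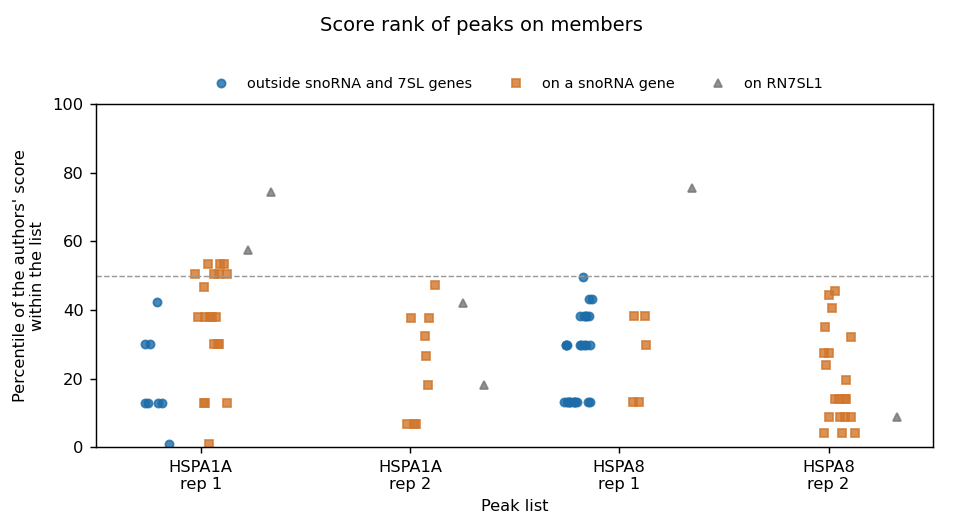
Percentile of the authors' score within its own list (vertical axis) for every peak on a member, by list and kind of peak. Points are spread sideways for visibility, and the dashed line is the midpoint of each list. Peaks outside snoRNA and 7SL genes lie below the line, at most at 49.5, and the RN7SL1 peaks of the lists numbered 1 lie above it.

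The pseudogenes of ribosomal proteins showed the same split between lists. Of 1989 such pseudogenes, 24 (1.21%) carried a peak in HSPA8 replicate 1 and 5 (0.251%) in HSPA1A replicate 1. The median score was 5 in each, and the lists numbered 2 held 0. Over 16845 pseudogenes of any kind, 2.55% and 1.62% had a peak with HSPA1A and 2.20% and 1.25% with HSPA8. In each list this share was above that of the ribosomal protein pseudogenes.

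RPS29 was called in every list through another RNA. RN7SL1 encodes 7SL, the RNA of the signal recognition particle, and lies at chr14:49586580-49586878 inside the 27723 bp annotated for RPS29. HSPA1A replicate 1 had peaks with scores of 13 and 45 there, HSPA1A replicate 2 had 10 and 6, HSPA8 replicate 1 had 83 and HSPA8 replicate 2 had 6. The score of 83 stood at percentile 75.6 of its list and belonged to a peak of 300 bp. No peak was found on RPS29 outside RN7SL1, so its counts describe 7SL.

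The snoRNA genes inside members gave another picture. The table places 63 snoRNA genes in 31 members, 44 of the box C/D and 19 of the box H/ACA kind. In HSPA1A replicate 1, 20 of the 63 had a peak (31.7%), against 5.42% of all 1199 snoRNA genes in the table. In HSPA1A replicate 2 it was 9 (14.3%) against 1.83%. In HSPA8 replicate 1 it was 5 (7.94%) against 1.83%, and in HSPA8 replicate 2 it was 19 (30.2%) against 4.67%. The table includes 658 snoRNA genes known by a LOC symbol alone, none of them in a member. Among the 476 other genes named SNORD or SNORA, 9.03%, 2.73%, 3.36% and 7.77% had a peak, in the same order of lists.

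By number of peaks the baits did not separate. The mean was 14.5 ± 7.78 snoRNA peaks for HSPA1A and 12.5 ± 10.6 for HSPA8 (SD, n = 2 each; exact permutation test, two-sided, p = 1). The HSPA8 replicates lay farther apart than the bait means. Leaving out HSPA1A replicate 1 or HSPA8 replicate 1 turned the difference of 2 peaks to -3.5 or -5.5.

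The box C/D snoRNAs had peaks in 13, 8, 5 and 13 of 44 genes, and the box H/ACA snoRNAs in 7, 1, 0 and 6 of 19. Both kinds thus had most genes with a peak in HSPA1A replicate 1 and HSPA8 replicate 2. Shares over all C/D or all H/ACA genes of the table were not computed. Over any list, 31 of the 63 had a peak: 16 in 1 list, 9 in 2, 5 in 3 and 1 in all 4. That is 49.2%, against 7.84% of all snoRNA genes (94 of 1199), a base that includes the LOC symbols.

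SNORD68, within RPL13, was the one of the 63 found in all 4 lists (1.59%), against 10 of the 1199 snoRNA genes (0.834%). That base includes the 658 LOC symbols, none of them in a member. All 10 are among the 539 genes named SNORD or SNORA, so the members do not stand out here. It lies at chr16:89561430-89561501. Its peaks scored 7 and 5 with HSPA1A and 7 and 18 with HSPA8. All 4 lay within a few bases of the snoRNA and covered between 47.2% and 93.1% of it. The score of 18 was the highest of the 20 snoRNA peaks in members within the list of HSPA8 replicate 2, at percentile 45.5 of that list.

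The snoRNA genes found in 3 lists were SNORD34 of RPL13A, SNORD42A of RPL23A and SNORA21 of RPL23, each missing from HSPA8 replicate 1, and SNORD58A of RPL17 and SNORD100 of RPS12, each missing from HSPA8 replicate 2. SNORD34 scored 7 and 5 with HSPA1A and 13 with HSPA8. SNORD42A scored 7 and 8 with HSPA1A and 7 with HSPA8. SNORD58A scored 10 and 7 with HSPA1A and 7 with HSPA8, and SNORD100 scored 11 and 6 with HSPA1A and 5 with HSPA8. SNORA21 was the only H/ACA snoRNA in 3 lists, with 5 and 9 against 9. Copies such as SNORD58A, SNORD58B and SNORD58C resemble each other, so the placement of their peaks may be uncertain.

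Replicates shared snoRNA genes unevenly. Both HSPA1A lists held 7 of the 63 (11.1%, against 1.58% of all snoRNA genes), which is 35.0% of the genes of replicate 1 and 77.8% of those of replicate 2. Both HSPA8 lists held 1 (1.59%, against 1.08%), which is 20% and 5.26% of their genes. The shares of all snoRNA genes, 19 and 13 of 1199, have the LOC symbols in their base. Those 19 and 13 genes are all among the 539 named SNORD or SNORA. Over named genes the shares are thus larger, and the 1.59% is not above its background. HSPA8 replicate 2 shared 10 genes with HSPA1A replicate 1 (52.6% and 50% of the 2 lists) and 6 with HSPA1A replicate 2 (31.6% and 66.7%). At these RNAs HSPA8 replicate 2 thus had more genes in common with either HSPA1A list than with its own replicate, whose list held 5.

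Some hosts held more than 1 snoRNA with a peak. RPL17 had peaks on SNORD58A, SNORD58B and SNORD58C, RPL13A on SNORD32A, SNORD34 and SNORD35A, and RPL7A on SNORD24, SNORD36B and SNORD36C. RPSA, a laminin receptor as well as a ribosomal protein, held SNORA62 with a score of 11 in HSPA1A replicate 1 and peaks of 5 and 6 in HSPA8 replicate 2. EEF2 held SNORD37, with a score of 10 in HSPA1A replicate 1 alone. In RPL39, RPL32 and RPL3 the only peak was also a snoRNA peak of HSPA1A replicate 1, on SNORA69 (score 10), SNORA7A (score 10) and SNORD43 (score 5).

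The snoRNA peaks kept to the snoRNA. Of 39 peaks on box C/D genes, 30 lay wholly inside the gene, and at least 91.4% of each peak was inside it. Of 15 on box H/ACA genes, 14 lay wholly inside. The median share of the snoRNA that a peak covered was 66.2% for C/D and 47.0% for H/ACA. In 25 of the 39 C/D peaks the covered part had its midpoint in the 3′ part of the snoRNA, as in SNORD58B above, with a median at 60.0% of its length. For the H/ACA peaks it was 7 of 15, with a median at 49.6%.

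A snoRNA peak was found in 19 members and a peak outside snoRNA and 7SL genes in 22, with 7 in both groups. Among those 7 were EEF2, RPL4, RPL13, RPL17 and RPS2. Of the 14 peaks outside snoRNA genes in members that host one, 5 lay within 100 bp of a snoRNA gene. They included 2 in RPS2, at gaps of 64 and 85 bp, 1 in RPL17 at 65 bp and 1 in RPL37 at 83 bp.

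No peak was found on 56 members: 31 large subunit genes, 23 small subunit genes and both exchange factor subunits. They include all 8 paralogues with a suffix L. Of the 56, 11 host a snoRNA gene, among them RPS3 with SNORD15A and SNORD15B, RPL21, RPL5 and RPS13, and 45 host none, among them RPL11, RPS6, RPS14 and RPS27A.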

How the data were processed

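Peak lists of 4 FLASH-seq libraries were used as deposited, 1 list per replicate. The authors' score per peak is a whole number whose meaning is not stated, used here to describe and rank peaks within a list. Trim Galore 0.4.4, FastQC, STAR 2.6.0b, deepTools and the build GRCh38 are named in the submitters' processing notes; the peak caller and its threshold are not given in the sources used here. Per the labels' protocols, random tags merged PCR duplicates.

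Peaks were assigned to genes of the RefSeq table (GRCh38.p14) by any overlap, strand ignored. Strand came from the promoter windows and was an alternative. Members, lists and tests were chosen with earlier results of these data known. Named genes by rule were the 4 elongation factors, members with a peak outside snoRNA genes in at least 3 lists, hosts of a snoRNA found in all 4 lists, and the members tied at the most peaks in any list.

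Baits were compared by exact permutation over 6 label orders. P-values measure the spread between 2 libraries per bait. Other settings were a higher score, equal numbers of peaks, overlap by midpoint or by most of the peak, merging within 50 bp, shared peaks, strand, snoRNA peaks, denominator, base pairs, paralogues, a block for the replicate number, and leaving out replicates singly; leaving out 7SL peaks was added after seeing the data. Counts were recovered in 20 of 20 simulated lists, whose peaks were placed by the same gene table, so this checks the counting alone. Versions were scipy 1.17.1, numpy 2.4.6, matplotlib 3.10.9 and pandas 2.3.3, under Python 3.11.15. Values of 2 members are not reported here by name; counts over members include them.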

Additional observations from a re-analysis of the deposited data

How the results depend on the processing

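Over 124 values under other settings, 89 were classed as the same, 30 as moved and 5 as changed in sign. Counts were classed by a set range, but a bait difference was classed as the same whenever its sign held. Its size could still change: the difference in members, -6.5 at the main setting, was -0.5 by the upper part of each list and -16 without HSPA8 replicate 2. With the upper part of each list by score, members with a peak outside snoRNA genes fell from 7, 1, 20 and 1 (HSPA1A replicates 1 and 2, HSPA8 replicates 1 and 2) to 1, 0, 2 and 0, members in both replicates from 1 to 0 for each bait, and snoRNA peaks in members from 20, 9, 5 and 20 to 7, 0, 0 and 0; the share of peaks, HSPA1A minus HSPA8, reversed from -0.241 to 0.00960 percentage points (exact permutation, p = 1). With equal numbers of top-scoring peaks, members fell to 3 in HSPA1A replicate 1 and 7 in HSPA8 replicate 1, and snoRNA peaks to 2 in HSPA8 replicate 1. These settings leave fewer peaks by construction. By the upper part, the members left were RPS29 through 7SL in both lists numbered 1, and EEF1A1 in HSPA8 replicate 1. The reversed share counts these peaks. Leaving out 7SL peaks, peaks on the opposite strand or peaks shared with another gene gave 0 members in each list numbered 2 and 0 in both replicates of each bait, since RPS29 was the only one. Counting snoRNA peaks with the others gave 21 members in HSPA1A replicate 1, 9 in HSPA1A replicate 2 and 15 in HSPA8 replicate 2. Members in both replicates were then 8 for HSPA1A and 9 for HSPA8, RPS29 included. These match by gene alone, and snoRNA genes of members with a peak in both lists were 7 for HSPA1A and 1 for HSPA8. With a replicate left out, the bait difference in members ranged from -16 to 3, in the share of peaks from -0.664 to 0.182 percentage points and in snoRNA peaks from -5.5 to 9.5; it turned to 3, 0.182 and -5.5 without HSPA8 replicate 1, and snoRNA peaks to -3.5 without HSPA1A replicate 1. Leaving out a replicate gives no gene in both replicates. Libraries share a replicate number only: deviations of same-numbered lists correlated at -0.0555 over 154 members and snoRNA genes. That value pools both kinds and does not describe the members alone, whose 35 peaks outside snoRNA and 7SL genes all came from lists numbered 1. With the replicate block the differences were -6.5 genes, -0.241 percentage points and 2 snoRNA peaks (exact sign-flip permutation, p = 1 for each). This test allows no p below 0.5. For the number of members the lists numbered 2 were equal, so its p was fixed whatever the lists numbered 1 held. Read depth is unknown and no GFP list was analysed here, which limits every count.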
